A study of Mus musculus with 24 samples.

Results

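The genes described here are 10 members of the BCL2 family of apoptosis regulators, namely Bcl2, Bcl2l1, Mcl1, Bak1, Bok, Bcl2l11, Bmf, Bid, Bad and Bik, of 18434 protein-coding genes with a probe on the arrays. They were chosen by a rule that used measured values: each is a family gene named in the probe annotation, and the set was proposed from the differences between treated and untreated arrays. All 10 symbols matched the annotation directly, and together they carry 21 probes of 60 bases, 1 each for Bid, Bik and Bok and several each for the other 7 genes. Each gene is represented by its brightest probe, the one whose mean signal was highest, and all 10 of these were bright enough to be tested. Other probes are given where they differ.

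Proteins of the BCL2 family decide whether the outer mitochondrial membrane stays intact. Bcl-2, Bcl-xL (encoded by Bcl2l1) and Mcl-1 protect the membrane, Bak and the less studied Bok can form pores in it, and the BH3-only proteins, among them Bim (encoded by Bcl2l11), Bmf, Bid, Bad and Bik, start the process by binding to the protectors or, for Bim and cleaved Bid, to the pore formers. Once the membrane is open, cytochrome c is released and caspases are activated. In fibroblasts under oxidative or DNA-damaging stress, the balance between these groups is one of the points at which survival or death is set, and much of it is controlled after transcription, which arrays do not measure.

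RNA came from Ku70-/- immortalized mouse embryonic fibroblasts, in which Xrcc6, encoding a DNA end-binding protein of nonhomologous end joining, is deleted in every group including the controls. KBrO3-only cells received 20 mM of potassium bromate, an oxidizing agent, for 1 hr and recovered for 3 or 23 hr (the 4 and 24 hr groups). Co-exposed cells had 150 µM bisphenol A (BPA), a plasticizer with estrogenic activity, for 1 hr before, during and after the same KBrO3 treatment. BPA-only cells were held in 150 µM BPA and are labeled 4 and 24 hr, although the methods count the pre-incubation hour as well. The first set of 15 arrays holds untreated controls labeled 4 hr, KBrO3-only cells and co-exposed cells; the second set of 9 arrays holds its own untreated controls, with no time given, and BPA-only cells. There are 3 arrays per group, which the methods call biological replicates. No control is labeled 24 hr, so treatment and longer culture cannot be told apart in a difference of a 24 hr group from control. All cells are 1 line of immortalized fibroblasts.

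Levels are the log2 of the spot's processed signal minus the log2 of the array's 75th percentile, so 0 is the level of a probe at that percentile. They can be compared between the arrays of a set for 1 probe, but not between probes or between sets. On the first set's arrays 57.7% to 68.1% of spots were well above background, and on the second set's 76.4% to 79.4%. The median probe's residual SD on the log2 scale was 0.107 and 0.340, so differences of the size common in the first set could go undetected in the second. Of 13 fibroblast markers, 12 were well above background on every array of the first set and 13 on every array of the second, Thy1 being above it on 10 of 15 arrays of the first set. Defining markers of blood, endothelium and muscle (Ptprc, Pecam1 and Des) were above background on no array. The Xrcc6 probe was well above background on all 24 arrays, with group means from −0.58 to 0.51, but whether it lies in the deleted part is not given in the sources used here, so it does not check the deletion.

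Because the rule used the differences from control, those differences are given as a description, with no test. Differences between treated groups are tested with limma and called where the p-value, adjusted by Benjamini-Hochberg across the probes of the set, was below 0.05; they use the same treated arrays and are not independent of the choice. The background is high: in the first set, 72.7% of 14100 tested genes passed this threshold for KBrO3 at 4 hr, 69.4% for KBrO3 at 24 hr, 80.4% for co-exposure at 4 hr and 72.5% for co-exposure at 24 hr, each against control. Of the 10 members, 8, 6, 10 and 8 passed it, which is read as nothing more than a description. All of these counts but the 6 hold Bik, which was tested in the first set only through its controls, where it read highest. The members' median log2 differences were −0.66, 0.15, −0.61 and −0.17, and the medians over all tested genes were 0.02, −0.07, 0.01 and −0.06. In these bulk samples, fewer cells of a kind and less RNA per cell cannot be told apart. Of the first set's treated groups, only KBrO3-only cells at 4 hr shared a slide with a control. In that set's other differences from control, slide and group cannot be told apart.

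**Figure D1:**
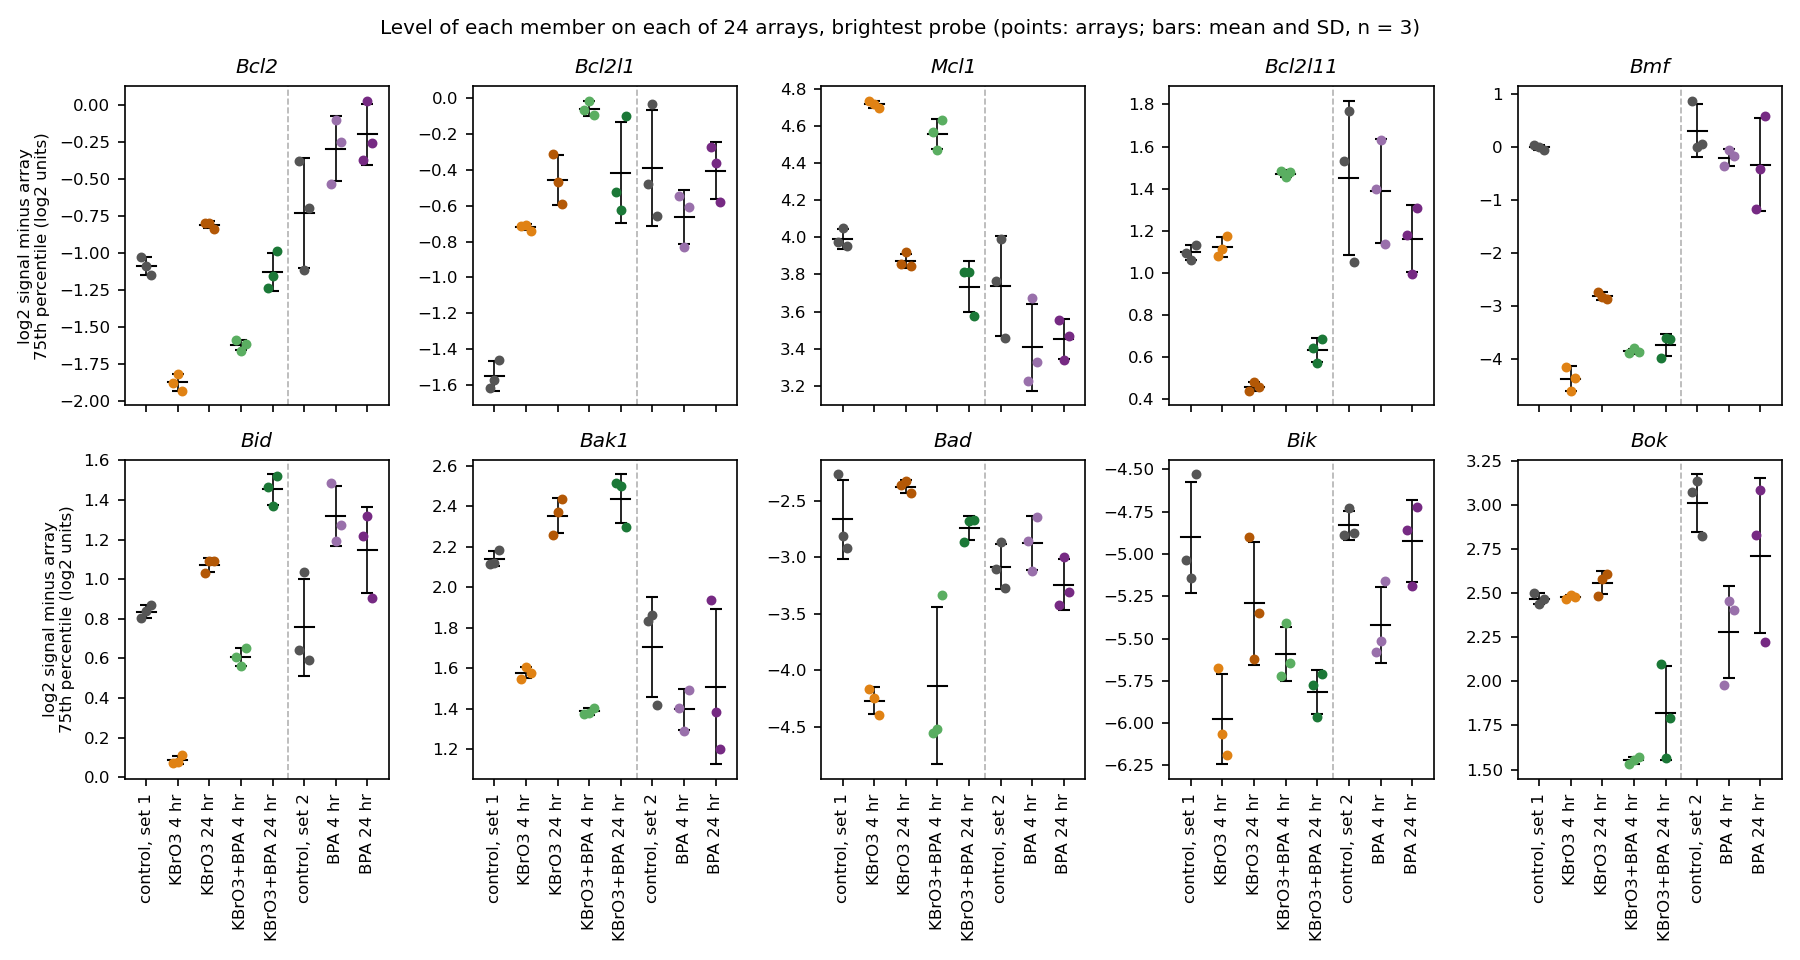
Log2 level of each member's brightest probe (vertical axis, relative to the array's 75th percentile) in every array (points), grouped by treatment, with bars for the mean and SD of each group of 3. Bmf sits between −0.05 and 0.04 in the first set's controls and at or below −2.73 in all 12 KBrO3-treated arrays.

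Among the protectors, Bcl2l1 was the member whose level was higher than control in every KBrO3-treated group. Bcl-xL, its main product, binds BH3-only proteins and Bak. Its brightest probe read −1.62, −1.57 and −1.46 in the controls, −0.71, −0.71 and −0.74 in KBrO3-only cells at 4 hr and −0.31, −0.47 and −0.59 at 24 hr. In co-exposed cells it read −0.07, −0.01 and −0.09 at 4 hr and −0.53, −0.62 and −0.10 at 24 hr. No treated array overlapped with the controls, and the groups stood 1.78-, 2.13-, 2.82- and 2.20-fold above control in the order KBrO3 4 and 24 hr, co-exposed 4 and 24 hr. With normexp background correction the log2 differences shrank from 0.83, 1.09, 1.49 and 1.14 to 0.31, 0.54, 0.92 and 0.57. At 4 hr, co-exposed cells were above KBrO3-only cells by 0.66 on the log2 scale (SE 0.114, 1.58-fold, adjusted p = 0.000419, all 3 arrays above all 3). At 24 hr the same difference at this probe was 0.04 (95% interval −0.21 to 0.30, adjusted p = 0.790). The 2 other Bcl2l1 probes, 49099 and 48554 bases away, also read higher than control in all 4 groups, by 0.21 to 0.91. For co-exposed against KBrO3-only cells at 4 hr they gave 0.38 (adjusted p = 0.0198) and 0.12 (adjusted p = 0.158). At 24 hr their means were −3.55 and −2.19 in co-exposed against −3.75 and −2.52 in KBrO3-only cells, the arrays of the former probe overlapping. Within the slide that held both 24 hr groups they were 0.41 and 0.37 higher. The mean of the gene's probes was called higher by limma at 24 hr (0.19, adjusted p = 0.0195), unlike the brightest probe.

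Mcl1, whose product is a short-lived protector, was higher than control at 4 hr and close to it at 24 hr. The brightest probe read 3.97, 4.05 and 3.95 in controls, 4.74, 4.72 and 4.69 after KBrO3 at 4 hr and 4.57, 4.47 and 4.63 in co-exposed cells at 4 hr. At 24 hr it read 3.85, 3.92 and 3.84 in KBrO3-only and 3.81, 3.81 and 3.58 in co-exposed cells. All 6 arrays at 4 hr lay above every control and all 6 at 24 hr below every control, the latter by 0.12 and 0.26 on the log2 scale. Between 4 and 24 hr Mcl1 fell 1.79-fold in KBrO3-only cells (adjusted p = 1.43e-07) and 1.77-fold in co-exposed cells (adjusted p = 1.62e-07), and the 2 falls differed by 0.02 (95% interval −0.18 to 0.23). A second probe 1312 bases away also fell, 1.81- and 2.89-fold, but it stayed above control at 24 hr, by 0.68 and 0.45, where the brightest probe was below it. At 4 hr this second probe averaged 3.11 in co-exposed and 2.66 in KBrO3-only cells, all 3 arrays above all 3. The brightest probe differed there by −0.16, which was not called.

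Bcl2, the founding protector, showed the opposite order in time at its brightest probe. Its levels there were −1.03, −1.09 and −1.15 in controls, −1.88, −1.82 and −1.93 after KBrO3 at 4 hr and −1.59, −1.66 and −1.62 in co-exposed cells at 4 hr. At 24 hr they were −0.80, −0.79 and −0.84 in KBrO3-only cells and −1.23, −1.16 and −0.98 in co-exposed cells. The 4 hr groups lay below every control, KBrO3-only cells at 24 hr lay above every control, and co-exposed cells at 24 hr overlapped with them. From 4 to 24 hr Bcl2 rose 2.09-fold in KBrO3-only cells (adjusted p = 8.24e-09) and 1.41-fold in co-exposed cells (adjusted p = 9.02e-06). Co-exposed cells were 0.25 above KBrO3-only cells at 4 hr (adjusted p = 0.00394) and 0.32 below them at 24 hr (log2 difference −0.32, adjusted p = 0.00105). With slide as a random block the 4 hr difference was 0.24 (adjusted p = 0.0571). The second Bcl2 probe, 174151 bases away, read −1.54, −1.54 and −1.30 in controls and −1.36, −1.43 and −1.32 after KBrO3 at 4 hr, which overlap, with a difference of 0.09 where the brightest probe had −0.79. From 4 to 24 hr it rose by 0.58 in KBrO3-only cells and 0.52 in co-exposed cells. For co-exposed against KBrO3-only cells it gave −0.41 at 4 hr and −0.47 at 24 hr (adjusted p = 0.000506 and 0.000239). The remaining probe gave −0.30 and −0.38 (adjusted p = 0.230 and 0.160), so no direction is given for the gene at 4 hr. The second probe covers the codons at the end of the BH1 domain, in capitals; it is shown because it read against the brightest probe at 4 hr:

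Bcl2 probe: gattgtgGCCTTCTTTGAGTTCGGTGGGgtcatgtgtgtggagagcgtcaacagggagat

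Of the pore formers, Bok gave the clearest difference between co-exposed and KBrO3-only cells. KBrO3 alone left its single probe (chr1:93603481-93603540, mm7, plus strand) close to the controls, at 2.47, 2.49 and 2.48 at 4 hr and 2.49, 2.58 and 2.61 at 24 hr against 2.50, 2.44 and 2.47 in controls. Co-exposed cells read 1.53, 1.55 and 1.57 at 4 hr and 2.10, 1.57 and 1.79 at 24 hr. All 6 co-exposed arrays lay below all 6 KBrO3-only arrays and all 3 controls. Relative to KBrO3 alone, Bok was 1.90-fold lower with BPA added at 4 hr (log2 difference −0.93, SE 0.0984, adjusted p = 1.11e-05) and 1.67-fold lower at 24 hr (−0.74, adjusted p = 6.81e-05). On the 1 slide that held both 24 hr groups, 2 arrays of each, the difference was −0.76. The 4 hr groups share no slide. With slide as a random block the 4 hr difference had an adjusted p of 0.00437, which does not separate slide from group. In the second set, where BPA was given alone, Bok read 1.98, 2.46 and 2.41 at 4 hr and 2.83, 3.09 and 2.23 at 24 hr against 3.07, 3.14 and 2.83 in that set's controls. The 4 hr BPA arrays lay below all controls (log2 difference −0.73, given as a description), and the 24 hr arrays overlapped with them.

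Bak1, encoding Bak, was lower than control at 4 hr and slightly higher at 24 hr by its brightest probe. It read 2.12, 2.12 and 2.19 in controls, 1.55, 1.60 and 1.58 after KBrO3 at 4 hr and 1.37, 1.38 and 1.40 in co-exposed cells at 4 hr. At 24 hr it read 2.26, 2.37 and 2.43 in KBrO3-only and 2.52, 2.50 and 2.30 in co-exposed cells. From 4 to 24 hr it rose 1.71-fold (adjusted p = 1.48e-07) and 2.07-fold (adjusted p = 7.48e-09). The second Bak1 probe, 1153 bases away, did not share this course. It read −1.68, −1.62 and −1.40 in controls, −1.63, −1.25 and −1.10 after KBrO3 at 4 hr and −0.75, −0.72 and −0.79 in the co-exposed 4 hr group. Between 4 and 24 hr it moved by −0.02 in KBrO3-only cells (adjusted p = 0.938) and fell 1.52-fold in co-exposed cells (adjusted p = 0.00577). Co-exposed against KBrO3-only cells at 4 hr gave −0.19 at the brightest probe (adjusted p = 0.0172) and 0.57 at the second (adjusted p = 0.0123), so no direction is given for the gene. The second probe covers codons of the BH1 domain, in capitals, and is shown as the probe with the opposite reading:

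Bak1 probe: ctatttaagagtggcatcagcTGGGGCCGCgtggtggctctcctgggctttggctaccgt

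**Figure D2:**
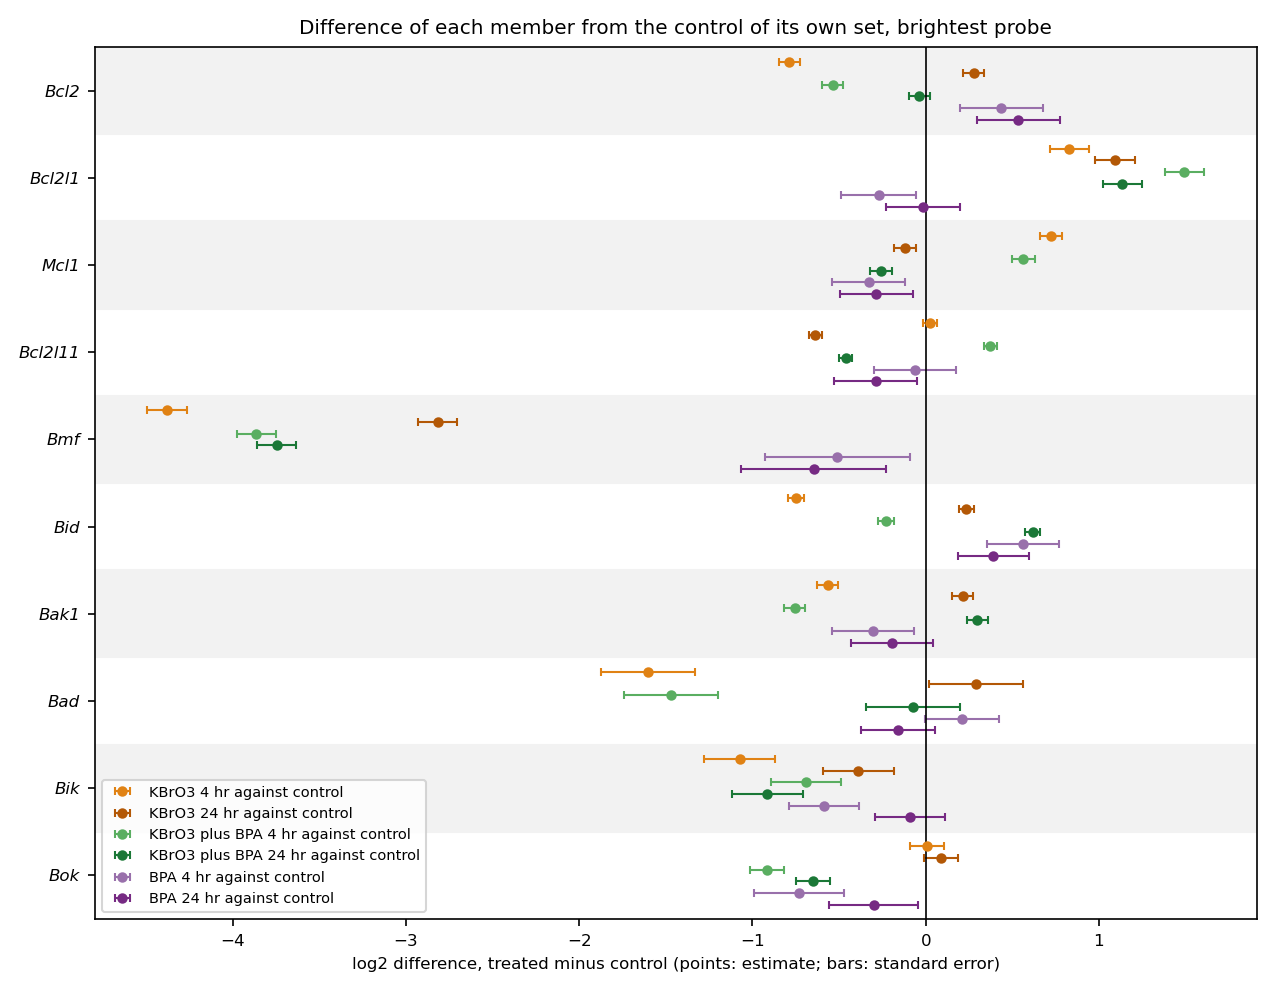
Log2 difference from the same set's untreated controls (horizontal axis) of each member's brightest probe, with bars for the standard error, for KBrO3-only, co-exposed and BPA-only cells at 4 and 24 hr. Bmf stands 4.38 below control after KBrO3 at 4 hr, Bcl2l1 is above control in all 4 KBrO3-treated groups, and the BPA-only points lie between −0.73 and 0.56.

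Among the BH3-only genes, Bmf had the lowest readings relative to control. Its product is held at the cytoskeleton by dynein light chain 2 and released under stress. The brightest probe (chr2:118269632-118269691, mm7, minus strand) read 0.04, 0.01 and −0.05 in controls, −4.15, −4.61 and −4.37 after KBrO3 at 4 hr and −2.73, −2.83 and −2.88 at 24 hr. Co-exposed cells read −3.90, −3.80 and −3.89 at 4 hr and −3.98, −3.62 and −3.64 at 24 hr. The groups stood 20.8-, 7.04-, 14.6- and 13.4-fold below control, and after KBrO3 at 4 hr 3 of the 14100 tested genes lay further below control. On the slide that held all 3 KBrO3 arrays of 4 hr and 1 control, the difference was −4.33.

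The time course of Bmf differed between the treatments. From 4 to 24 hr the brightest probe rose 2.96-fold in KBrO3-only cells (log2 difference 1.56, SE 0.113, adjusted p = 7.65e-08), whereas in co-exposed cells the difference was 0.12 (95% interval −0.13 to 0.37, adjusted p = 0.347). The latter depended on the scaling: it was called as a rise of 0.58 with median scaling (adjusted p = 0.000594) and of 0.61 with quantile normalization (adjusted p = 0.000209). The difference between the 2 treatments' changes was −1.45 (SE 0.159, adjusted p = 2.31e-05). Co-exposed cells were thus 1.43-fold above KBrO3-only cells at 4 hr (adjusted p = 0.00214, or 0.119 with a difference of 0.46 under the slide block) and 1.91-fold below them at 24 hr (adjusted p = 3.17e-05, −0.94 within the shared slide).

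The size of the Bmf reading and its course in time rest on 1 probe. The second probe, 3793 bases away (chr2:118273425-118273484), read −2.66, −3.07 and −3.05 in controls and −3.00, −3.69 and −3.47 after KBrO3 at 4 hr, which overlap. In co-exposed cells it read −2.48, −2.51 and −2.51 at 4 hr and −4.02, −4.04 and −4.47 at 24 hr. Its differences from control were −0.45, −0.61, 0.43 and −1.25, against −4.38, −2.82, −3.86 and −3.75 at the brightest probe. From 4 to 24 hr this probe moved by −0.16 in KBrO3-only cells (adjusted p = 0.620) and fell 3.19-fold in co-exposed cells (adjusted p = 0.000117), so neither course was that of the brightest probe. The difference between the courses was −1.52 (adjusted p = 0.00595). The remaining Bmf probe was well above background on 0 of 15 arrays of the first set. The second probe is shown because it lacks the large difference, with no capitals since no domain motif was searched for in it:

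Bmf probe: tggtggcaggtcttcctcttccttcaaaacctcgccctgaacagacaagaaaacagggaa

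Bcl2l11, encoding Bim, also gave different readings at its probes relative to control, but the same reading for BPA added to KBrO3. The brightest probe (chr2:127903168-127903227, mm7, plus strand) read 1.10, 1.06 and 1.13 in controls, 1.08, 1.11 and 1.18 after KBrO3 at 4 hr and 0.44, 0.48 and 0.46 at 24 hr. Co-exposed cells read 1.48, 1.45 and 1.48 at 4 hr and 0.64, 0.57 and 0.69 at 24 hr. The second probe, which spans 11096 bases of genome (chr2:127888010-127899105) and so joins exons, read −4.00, −3.86 and −4.00 in controls, −2.82, −2.55 and −2.77 after KBrO3 at 4 hr and −3.24, −3.22 and −3.32 at 24 hr. In co-exposed cells it read −2.25, −2.21 and −2.22 at 4 hr and −2.85, −2.88 and −2.93 at 24 hr. At 24 hr the brightest probe was therefore below control in both treatments (−0.64 and −0.46) and the exon-joining probe above it (0.69 and 1.07). Co-exposed cells were higher than KBrO3-only cells at both probes and both times: 1.27- and 1.40-fold at 4 hr (adjusted p = 2.04e-05 and 6.71e-05) and 1.13- and 1.30-fold at 24 hr (adjusted p = 0.00358 and 0.000561). The 24 hr call at the brightest probe was lost with the compared arrays fitted alone (0.17, adjusted p = 0.0635) and with normexp (0.15, adjusted p = 0.572). At both probes and both times all 3 co-exposed arrays lay above all 3 KBrO3-only arrays.

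In BPA-only cells the exon-joining probe read −3.02, −2.80 and −2.79 after 4 hr of BPA and −3.34, −3.79 and −3.68 after 24 hr, against −3.95, −3.77 and −4.02 in that set's controls. The 4 hr arrays all lay above the controls, 2.07-fold on average, and 1.04 higher on the log2 scale within the slide that held 2 of them and 1 control. The remaining Bcl2l11 probe, tested in the second set only, was 1.15 higher on the log2 scale at 4 hr of BPA. Within that slide it was 0.29 higher, and it was dim, reading from −6.58 to −5.39 in that set's controls. The brightest probe differed by −0.06. The exon-joining probe carries the codons at the core of the BH3 domain, the part of Bim that binds its partners, in capitals:

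Bcl2l11 probe: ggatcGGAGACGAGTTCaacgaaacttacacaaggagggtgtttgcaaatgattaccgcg

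**Figure D3:**
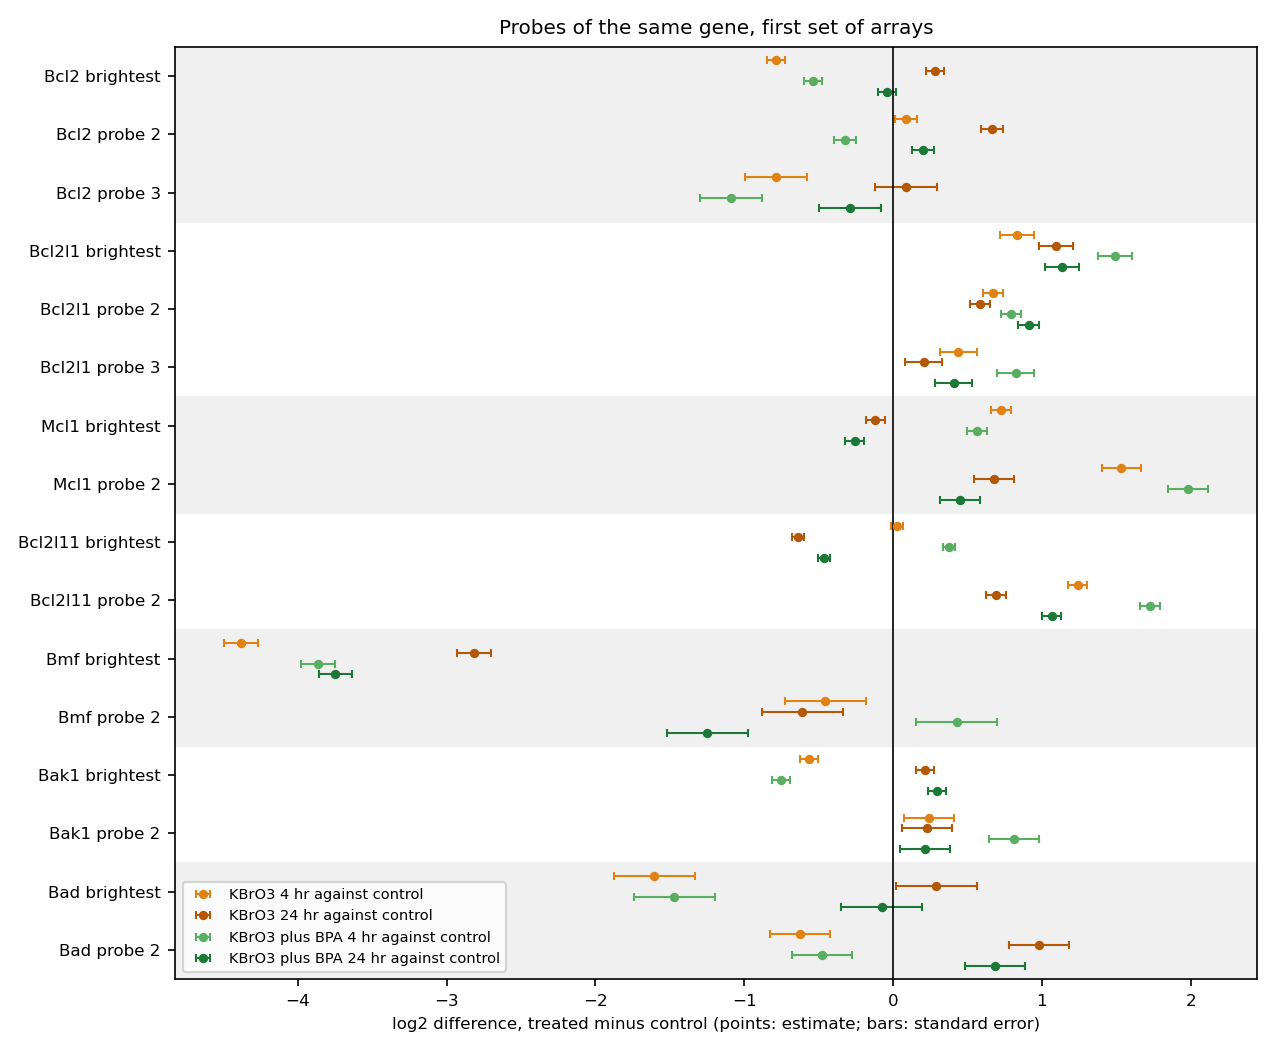
Log2 difference from control (horizontal axis) at each tested probe of the 7 members with several probes, for the 4 KBrO3-treated groups, with bars for the standard error. The probes of Bcl2l1 lie above 0 in all 4 groups, whereas each of the 6 other genes has probes on both sides of 0 in 1 or more groups.

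Bid, whose product links death receptors to mitochondria once cleaved by caspase-8, was lower than control at 4 hr and higher at 24 hr. Its single probe (chr6:120918747-120918806, mm7, minus strand) read 0.80, 0.84 and 0.87 in controls, 0.07, 0.08 and 0.11 after KBrO3 at 4 hr and 1.03, 1.09 and 1.09 at 24 hr. Co-exposed cells read 0.61, 0.56 and 0.65 at 4 hr and 1.47, 1.37 and 1.52 at 24 hr. No 2 of these 5 groups overlapped. With BPA added, Bid was higher than after KBrO3 alone, 1.44-fold at 4 hr (log2 difference 0.52, SE 0.0446, adjusted p = 2.24e-06) and 1.30-fold at 24 hr (0.38, adjusted p = 2.36e-05). It rose from 4 to 24 hr in both, 1.98- and 1.80-fold (adjusted p = 1.04e-09 and 3.51e-09). In BPA-only cells it read 1.48, 1.19 and 1.27 at 4 hr against 0.64, 1.04 and 0.59 in controls, all above them, by 0.56, given as a description, and 1.22, 1.32 and 0.91 at 24 hr, which overlap.

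Bad and Bik were the dim members. Bad is kept inactive by 14-3-3 proteins when phosphorylated. Its brightest probe (chr19:6770968-6771027, mm7) maps to the minus strand, opposite to the gene and 8976 bases from the probe of the gene's own transcript, so it is not taken as a measure of Bad. It read −2.27, −2.81 and −2.92 in controls and −4.16, −4.25 and −4.40 after KBrO3 at 4 hr, and rose 3.72-fold by 24 hr (adjusted p = 4.25e-05). Co-exposed cells at 4 hr read −4.56, −4.52 and −3.33, the last array standing apart. The probe on the gene's strand (chr19:6761992-6762051) read −5.19, −4.70 and −4.44 in controls, and no KBrO3-only array of 4 hr had it well above background. At 24 hr it read −3.58, −3.93 and −3.89 after KBrO3 and −4.15, −3.99 and −4.13 in co-exposed cells, all above the controls. It was at least 2.61-fold higher at 24 than at 4 hr in KBrO3-only cells (adjusted p = 1.35e-05), the bound being the lowest signal well above background. In co-exposed cells it was also higher at 24 than at 4 hr (adjusted p = 0.000205), where 1 of 3 arrays of 4 hr had it well above background and no fold is given. At 24 hr co-exposed cells differed from KBrO3-only cells by −0.30 (95% interval −0.75 to 0.15).

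Bik, a BH3-only gene of the endoplasmic reticulum, was well above background on 4 of 15 arrays of the first set. It read −5.04, −5.14 and −4.53 in controls and from −6.19 to −4.90 in the treated arrays. Bik entered the test there only through the controls, the 1 group with all 3 arrays well above background. A lower reading in other groups was thus set in advance by that filter and is no result. As a description, it was at least 1.29-fold lower than control after KBrO3 at 4 hr and at least 1.46- and 1.28-fold lower in co-exposed cells at 4 and 24 hr, and no fold is given between groups that are both below background. In the second set, where it was above background on all 9 arrays, it read −4.89, −4.73 and −4.88 in controls, −5.58, −5.51 and −5.16 at 4 hr of BPA and −4.86, −5.19 and −4.72 at 24 hr.

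Set side by side, BPA added to KBrO3 went with different readings at different members. At 4 hr 7 of 10 members were called, against 60.8% of all tested genes (28.1% higher and 32.7% lower in co-exposed cells), and the members' median difference was 0.30 against −0.02 over all genes. By their brightest probes Bcl2, Bcl2l1, Bcl2l11, Bmf and Bid were higher in co-exposed cells and Bak1 and Bok lower, and Mcl1, Bad and Bik were not called. Other probes of Bcl2 and Bak1 read the other way, so no direction is given for those genes. The second Mcl1 probe was higher in co-exposed cells, unlike the brightest. At 24 hr 5 of 10 were called, against 50.4% (28.5% higher and 21.9% lower), with a median of −0.23 against 0.01. Bcl2l11 and Bid were higher and Bcl2, Bmf and Bok lower. These shares are near those of all genes. The 4 hr groups lie on different slides, and slide and group cannot be told apart there. The KBrO3-only 4 hr arrays shared a slide only with a control, and the co-exposed 4 hr arrays only with a KBrO3-only 24 hr array. A random slide block (correlation within slides 0.634) cannot separate slide from group at 4 hr, so calls that remain under it are no support. Under it limma still called Bcl2l1, Bcl2l11, Bid and Bok (adjusted p = 0.00218, 0.000901, 0.000152 and 0.00437). It did not call Bcl2, Bmf and Bak1 (adjusted p = 0.0571, 0.119 and 0.161), whose differences were 0.24, 0.46 and −0.14 with the block and 0.25, 0.52 and −0.19 without it. With normexp background correction Bid and Bok kept their calls at 4 hr, and Bmf, Bid and Bok at 24 hr. The 4 hr differences whose calls were lost were then 0.61 for Bcl2l1, 0.34 for Bcl2l11 and −0.19 for Bak1, against 0.66, 0.35 and −0.19, and 0.18 for both Bcl2 and Bmf, against 0.25 and 0.52. At 24 hr they were −0.28 for Bcl2 and 0.15 for Bcl2l11, against −0.32 and 0.17. Median scaling lost Bcl2 at both times (0.11 and −0.15). At 24 hr all 5 calls remained with the block, and within the slide that held 2 arrays of each group the differences were −0.38 for Bcl2, 0.14 for Bcl2l11, −0.94 for Bmf, 0.33 for Bid and −0.76 for Bok.

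**Figure D4:**
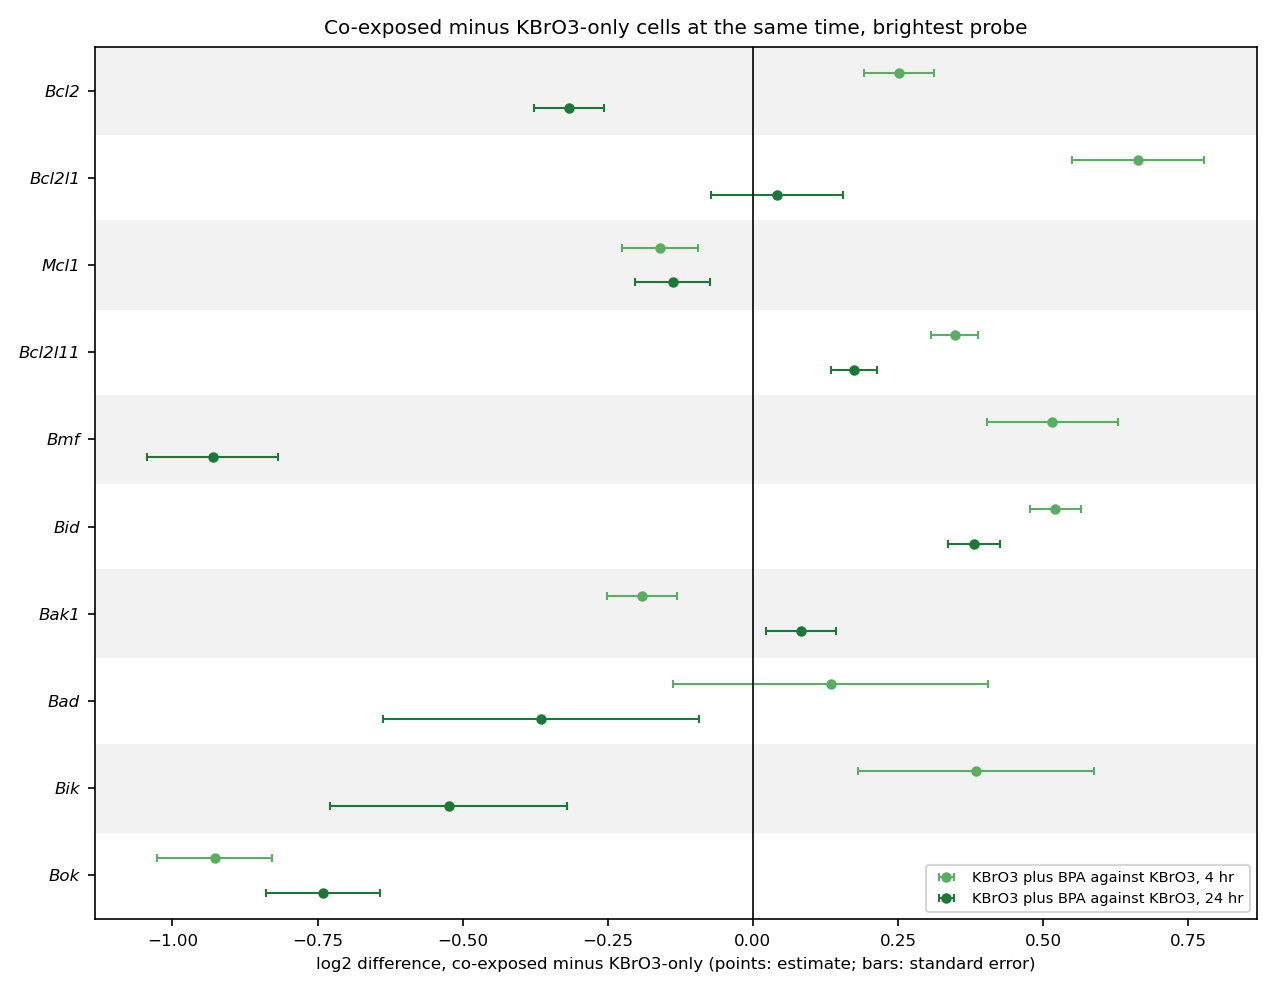
Log2 difference of co-exposed minus KBrO3-only cells (horizontal axis) at each member's brightest probe at 4 and 24 hr, with bars for the standard error. Bok lies at −0.93 and −0.74 and Bid at 0.52 and 0.38, on the same side at both times, whereas Bmf moves from 0.52 to −0.93.

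Between 4 and 24 hr, 8 of 10 members were called in KBrO3-only cells (77.7% of all genes) and 8 of 10 in co-exposed cells (84.5%). Bcl2, Bid and Bak1 rose in both by their brightest probes, the second Bak1 probe reading otherwise as given above. The brightest Bad probe, which is counted here but not taken as a measure of Bad, also rose in both. Mcl1 and Bcl2l11 fell in both, the latter 1.58- and 1.79-fold (adjusted p = 1.43e-08 and 1.42e-09). Bcl2l1 fell 1.28-fold in co-exposed cells (adjusted p = 0.0119) and differed by 0.26 in KBrO3-only cells (adjusted p = 0.0530), a value that passed the threshold with slide as a random block (0.42, adjusted p = 0.0112) and with median scaling (0.41, adjusted p = 0.00297) and was −0.020 as the mean of the gene's probes. Scaling each array to its median instead moved the median of all genes by 0.46 in the co-exposed comparison, and the Bcl2l1 difference then turned to 0.10. Its call was also lost with normexp (−0.35, adjusted p = 0.204) and with the compared arrays fitted alone (−0.36, adjusted p = 0.0573). The call for Bok, a rise of 0.27 in co-exposed cells (adjusted p = 0.0244), was lost when replicate 1 or 2 of the 4 hr or replicate 1 of the 24 hr co-exposed arrays was left out, with slide as a random block (0.20, adjusted p = 0.232), with normexp (0.28, adjusted p = 0.205) and with the compared arrays fitted alone (adjusted p = 0.115). The change from 4 to 24 hr differed between the treatments for 6 of 10 members (57.4% of all genes). This count and that of KBrO3-only cells hold Bik, whose signals there were mostly below background. The plot of the time course shows the differing members as lines that are not parallel. No time comparison had both times on 1 slide.

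**Figure D5:**
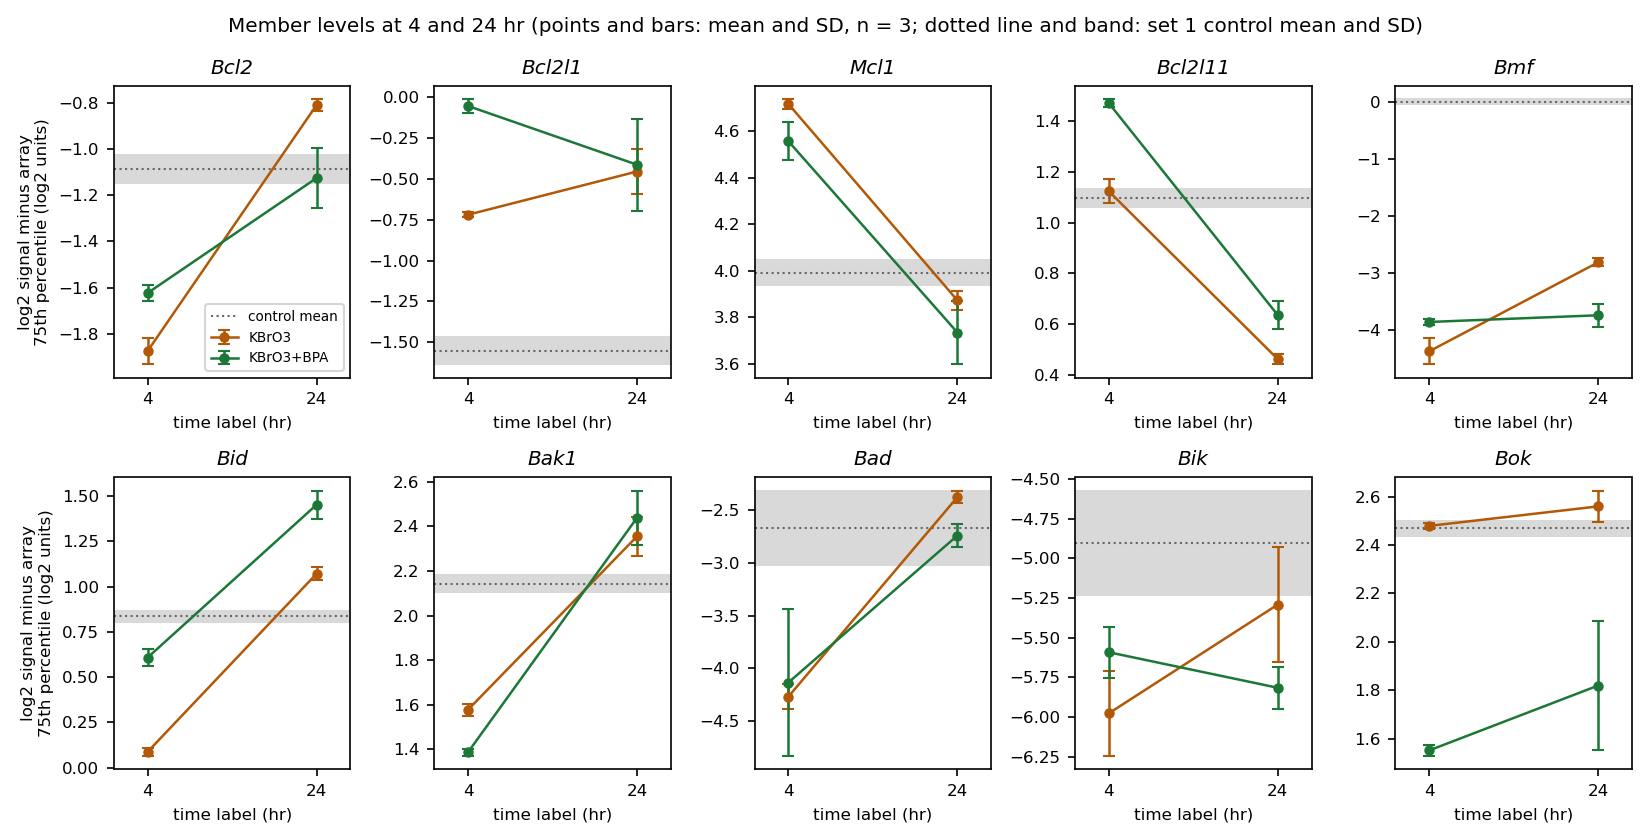
Log2 level of each member's brightest probe (vertical axis) in KBrO3-only and co-exposed cells at 4 and 24 hr, as mean and SD of 3 arrays joined by lines, with the mean and SD of the first set's controls as a dotted line and band. The Bmf line rises by 1.56 in KBrO3-only cells and differs by 0.12, which was not called, between the times in co-exposed cells, while the 2 Mcl1 lines fall by similar amounts.

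In BPA-only cells, where the differences from control are again a description, limma called 0 of the 10 members by their brightest probes at 4 hr (4.68% of 15742 tested genes), at 24 hr (4.31%) or between the times (4.3%). At an unadjusted p below 0.05 there were 3 (Bid, Bik and Bok), 0 and 1 (Bik), where 20.2%, 20.8% and 21.3% of all tested genes were below it, and nothing is read from the first 2 counts, which the rule used. The members' differences from control ranged from −0.73 to 0.56 at 4 hr and from −0.65 to 0.53 at 24 hr. In data simulated with few changed probes, this threshold recovered 0% of log2 changes of 1 for BPA at 4 hr. For KBrO3 at 4 hr in the first set it recovered 83%. A count of 0 for differences this small is therefore no sign that the members did not differ. Bmf read 0.88, −0.00 and 0.07 in these controls, −0.36, −0.05 and −0.17 at 4 hr and −1.17, −0.41 and 0.59 at 24 hr, where the arrays of 1 group span more than the difference between groups.

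The other genes of the pathway were taken as 6 lists. Of 15 further BCL2 family genes, 12 had a probe and 8 were tested. After KBrO3 at 4 hr, 34.5% of all genes were called higher and 38.2% lower than control, and of these 8, 2 were higher and 5 lower (median −0.95), with Pmaip1, encoding the BH3-only protein Noxa, 2.40 higher and Bbc3, encoding Puma, 1.10 lower (log2 difference −1.10). For co-exposed against KBrO3-only cells, the shares of all genes to set beside the list counts are 28.1% higher and 32.7% lower at 4 hr and 28.5% higher and 21.9% lower at 24 hr. Of the 8 family genes 0 were higher and 3 lower at 4 hr, led by Bnip3 (−0.66, adjusted p = 2.98e-06), and 5 were higher and 0 lower at 24 hr (median 0.47). Those at 24 hr were Pmaip1 (3.14-fold, adjusted p = 4.48e-09), Bbc3 (2.01-fold, adjusted p = 4.97e-07), Bnip3, Bax (1.59-fold, adjusted p = 3.90e-06) and Bnip3l. Pmaip1, Bbc3 and Bax are known p53 targets. In the means, Pmaip1 stood at 2.25 in co-exposed and 0.61 in KBrO3-only cells at 24 hr, against 0.06 in controls.

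The same shares of all genes apply to the lists that follow. Downstream of the membrane, 16 genes of the apoptosome, the caspases, their inhibitors and the channel proteins were tested. At 4 hr 6 were higher and 4 lower with BPA added (median 0.04), and at 24 hr 8 were higher and 4 lower (median 0.06). Apaf1, which assembles the apoptosome, was 2.05-fold lower at 4 hr (adjusted p = 5.67e-06) and 1.54-fold higher at 24 hr (adjusted p = 0.000291). Birc3, a caspase inhibitor family gene, was 1.74-fold higher at 4 hr (adjusted p = 3.93e-06). Of 8 genes of the death receptor route that ends in Bid cleavage, 3 were higher and 2 lower at 4 hr and 4 were higher and 0 lower at 24 hr, with Ripk1 1.47-fold higher at 4 hr (adjusted p = 0.000133). Of 8 genes for 14-3-3 proteins and dynein light chains, which hold Bad, Bim and Bmf, 1 was higher and 5 lower at 4 hr and 0 were higher and 5 lower at 24 hr. Ywhaz was 1.87-fold lower at 4 hr (adjusted p = 4.83e-06), and Dynll1 was lower at both times (−0.34 and −0.31).

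Of 11 transcription regulators known to act on family genes, 3 were higher and 5 lower at 4 hr and 3 were higher and 3 lower at 24 hr in co-exposed cells. Ddit3, encoding CHOP of the endoplasmic reticulum stress response, was 2.38-fold higher at 4 hr (adjusted p = 1.11e-07) and 2.86-fold higher at 24 hr (adjusted p = 1.28e-08). Atf4, which acts upstream of it, was 1.58- and 2.08-fold higher (adjusted p = 3.32e-06 and 5.72e-08). Foxo1 was 1.58- and 1.43-fold lower (adjusted p = 8.50e-07 and 4.63e-06). Of 4 tested genes of Mcl-1 turnover, the deubiquitinase gene Usp9x was 1.24-fold higher at 4 hr (adjusted p = 0.00455) and the ubiquitin ligase gene Huwe1 lower by 0.16 (log2 difference −0.16, adjusted p = 0.0301), and at 24 hr the ligase gene Fbxw7 was 1.24-fold higher (adjusted p = 0.000680). After KBrO3 at 4 hr these last 5 lists, in the order given, had 4, 2, 7, 9 and 3 genes called above control and 8, 6, 0, 1 and 1 below, with medians of −0.18, −0.43, 0.41, 0.74 and 0.73.

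Promoters were read from RefSeq (GRCm38.p6) as the 250 bases before each start site, for 15 starts of 9 members, and searched on both strands for 6 motifs. TGTTTAC, a FOXO-type motif, was found at 1 member start (3.17% of 32851 starts in all), CCGGAAG, an ETS motif, at 2 (6.91%) and TGACNNNGC, an NRF2-type motif, at 1, that of Bcl2l1 (10.2%). TGACGTCA (1.55%), TGANTCA (6.75%) and TTCNNNGAA (7.02%) were at 0, which says no more than that these letters are not in these windows. The promoters of Bcl2l11 (chr2:128125788-128126037, plus strand) and Mcl1 (chr3:95658471-95658720, plus strand) are shown because they hold the FOXO-type and ETS matches, in capitals, at −227 and −105 in Bcl2l11 and at −63 in Mcl1. A match is a string of letters and was not tested as a binding site:

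Bcl2l11 promoter: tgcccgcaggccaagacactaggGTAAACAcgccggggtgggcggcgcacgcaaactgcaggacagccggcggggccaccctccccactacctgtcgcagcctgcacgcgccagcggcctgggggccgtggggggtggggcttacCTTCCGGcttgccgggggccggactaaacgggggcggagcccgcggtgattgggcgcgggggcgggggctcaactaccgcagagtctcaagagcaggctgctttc
Mcl1 promoter: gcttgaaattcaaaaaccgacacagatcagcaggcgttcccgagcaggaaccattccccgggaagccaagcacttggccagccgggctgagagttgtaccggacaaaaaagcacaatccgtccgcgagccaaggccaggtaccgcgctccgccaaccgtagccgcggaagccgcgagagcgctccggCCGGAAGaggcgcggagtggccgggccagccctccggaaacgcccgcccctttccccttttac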

How the data were processed

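The authors hybridized Cy3-labeled RNA to 1-color Agilent whole mouse genome arrays and deposited fluorescence intensity values per spot from Feature Extraction (12.0 in the submitters' processing notes, 12.0.0.7 in the headers of the second set's files and 9.5.3.1 in those of the first), detrended within each array and not normalized between arrays. A deposited value table holds the same intensity values. Here the processed signal was converted to log2, the array's 75th percentile was subtracted, control and outlier spots were left out, and spots of 1 probe were averaged. Of 41174 probes, 32719 matched a RefSeq gene. A probe was tested if some group had it well above background on all 3 arrays. Each set was fitted with limma 3.58.1 in R 4.3.3, two-sided, with Benjamini-Hochberg adjustment. The members, the gene lists and the motifs were chosen with earlier results of these data known. Each gene was named by its brightest probe, and the 3 largest differences of a list were named, with others where they bear on a member. Replicate numbers did not pair the arrays. Alternatives were 2 other scalings, normexp with an offset of 50 (on the median raw signal in the second set), other filters on dim probes, the mean of a gene's probes, the fit of the compared arrays alone, slide and replicate blocks, the value table, the methods' Bonferroni threshold, and each array left out. Steps were tested on simulated data. The number of arrays limits the precision.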

Additional observations from a re-analysis of the deposited data

Results flagged for a closer look

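For 6 members the change from 4 to 24 hr differed between co-exposed and KBrO3-only cells by limma's interaction term. The co-exposed change minus the KBrO3-only change on the log2 scale was −0.57 for Bcl2 (adjusted p = 0.000211), −0.62 for Bcl2l1 (0.00669), −0.17 for Bcl2l11 (0.0215), −1.45 for Bmf (2.31e-05), 0.27 for Bak1 (0.0172) and −0.91 for Bik (0.0190). Of these, Bmf was called under all 10 alternatives to the scaling, filter, probe, block and source of values that were run. With slide as a random block Bak1 and Bik lost their calls by limma (adjusted p = 0.0543 and 0.108). Median scaling ended those of Bcl2 (−0.26, adjusted p = 0.108), Bcl2l1 (−0.31, 0.0916), Bcl2l11 (0.14, 0.296) and Bik (−0.60, 0.0576), and quantile normalization those of Bak1 (0.17, 0.0847) and Bik (−0.35, 0.261). The mean of a gene's probes ended those of Bcl2 (−0.23, 0.0644), Bcl2l1 (−0.20, 0.0646) and Bak1 (−0.15, 0.328). Normexp ended all but that of Bmf, with −0.46 for Bcl2, −0.58 for Bcl2l1, −0.19 for Bcl2l11, 0.30 for Bak1 and −0.01 for Bik. Bcl2l11 lost its call without replicate 1 of the KBrO3-only 4 hr arrays, where its value was −0.15. The other probes of Bcl2 gave −0.05 (adjusted p = 0.680) and −0.07 (0.848), the second probe of Bcl2l11 gave −0.11 (0.319), and that of Mcl1 gave −0.68 (0.00945) where the brightest Mcl1 probe gave 0.02. The second Bak1 probe gave −0.58 (adjusted p = 0.0559), opposite in sign to the brightest, and the other Bcl2l1 probes gave 0.21 (0.0885) and −0.18 (0.403). The second Bmf probe gave −1.52 (0.00595). Bik was below background on every array in 3 of the 4 groups of this comparison and on 2 of 3 arrays in the other, so its value comes from signals that set no level and is no measure of a change.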

How the results depend on the processing

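Over the alternatives other than leaving out an array, 1151 of 1311 member values kept their direction and side of the threshold, 87 lost a call, 21 gained one, 18 turned with a call on some side, and 34 turned with no call in either fit. With an array left out the numbers were 746, 6, 7, 0 and 21 of 780. The causes were not tested. With the methods' Bonferroni threshold and fold, the members called against control fell to 4 and 2 for KBrO3 and 3 and 2 for co-exposure at 4 and 24 hr, to 0 and 0 for co-exposed against KBrO3-only cells (8 and 6 at an unadjusted p below 0.05, as were 65.1% and 56.5% of all genes), to 4 for co-exposed cells over time and to 0 for the interaction (7 unadjusted, and 63% of all genes). With normexp, co-exposed against KBrO3-only counts were 2 and 3, co-exposed over time 5 and the interaction 1. A slide block gave 4 at 4 hr, and median scaling 3 for the interaction. With the replicate block the counts were 8, 6, 10 and 8 against control and 7 and 5 between treatments, as without it, and no other count moved by over 1.5 times.

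Values that turned where the main or the alternative value was called, on the log2 scale: with the mean of a gene's probes, Mcl1 0.28 and Bcl2l11 0.028 for KBrO3 at 24 hr, Bak1 0.028 for co-exposure at 4 hr, Mcl1 0.10 and Bcl2l11 0.30 for co-exposure at 24 hr, Bcl2 −0.15 and Bak1 0.19 for co-exposed against KBrO3-only cells at 4 hr, Bmf −0.78 for co-exposed cells over time, and Mcl1 −0.33 and Bak1 −0.15 for the interaction. With median scaling, Bcl2 was 0.28 and Mcl1 0.060 for co-exposure at 24 hr, Bcl2l1 0.10 for co-exposed cells over time and Bcl2l11 0.14 for the interaction. With normexp, Bcl2 was −0.023 for KBrO3 at 24 hr, Mcl1 0.043 for co-exposure at 24 hr and Bik −0.43 for KBrO3 over time. With quantile normalization, Bik was 0.65 for co-exposed cells over time. Without replicate 2 of the KBrO3-only 4 hr arrays Bak1 lost its call between treatments (−0.18), and without replicate 2 of the co-exposed 24 hr arrays Bcl2l1 lost its call over time (−0.25).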
